A study of Mus musculus with 5 samples.

Results

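The clustered histone genes are the replication-dependent histone genes that sit side by side in the genome. They were taken as every row of the expression tables whose gene symbol begins with Hist1h, Hist2h, Hist3h or Hist4h, which gave 70 of 55573 genes. By class they are 6 H1, 20 H2A, 19 H2B, 12 H3 and 13 H4 genes. By position, 56 carry the name of the Hist1 cluster, 10 of Hist2, 3 of Hist3 and 1 of Hist4. GENCODE M21 annotates 67 as protein-coding and 3 as pseudogenes (Hist1h2aj, Hist1h2al and Hist3h2bb-ps). On GRCm38 the protein-coding Hist1 members lie at chr13:21715763-23934851, the Hist2 members at chr3:96219865-96270132, the protein-coding Hist3 members at chr11:58948920-58956830 and Hist4h4 at chr6:136801553-136804415. The pseudogene Hist1h2al lies far from the rest of Hist1, at chr13:51202727-51203065.

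The study sequenced RNA of whole tissue from 3 tumours of Th-Cre:MYC mice and from normal pancreas of 2 Wild Type littermates. The tumour mice came from a cross of TH-Cre with CAG-STOPflox/flox-MYC mice: Cre made under the tyrosine hydroxylase promoter removes a stop in front of a MYC transgene, so only cells that have used this promoter, and their descendants, carry active MYC. The series title presents the mice as a neuroblastoma model, while the design text speaks of tumour of the pancreas, and the stated question was how expression differs between tumour and normal pancreas. The normal pancreas was perfused with RNAlater before removal, and RNA of both tissues was extracted with the RNeasy Mini Kit. The sources used here give neither age and sex nor whether the libraries were made from polyadenylated RNA. The titles of tumour replicates 1 and 2 share a number that replicate 3 does not have, and no label says whether this marks a shared animal. In whole tissue, fewer cells that make an RNA and less of that RNA per cell cannot be told apart.

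Most clustered histone genes are transcribed in S phase, when the cell has to package newly copied DNA. H2A, H2B, H3 and H4 form the core particle around which DNA is wound, and H1 binds the DNA that enters and leaves it. The main mRNAs of these genes are the only animal mRNAs known to end without a poly(A) tail: a stem-loop, bound by the protein SLBP, takes its place, and U7 RNA guides the cleavage behind it. Some members also make longer, polyadenylated transcripts that run past the stem-loop, and these are known mainly from cells that have stopped dividing. A library made by poly(A) selection catches the second kind and loses most of the first.

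Total estimated counts ran from 6611967 in tumour replicate 3 to 51669489 in normal pancreas replicate 2. Small RNAs annotated as miscellaneous RNA, which have no poly(A) tail, took 22.0% to 25.3% of all counts in the tumour libraries and 0.000319% to 0.00116% in the normal ones. All 10 acinar markers were lower and all 10 neuroendocrine and 10 cycling markers higher in tumour by the test described below, so the tissue labels and the markers went the same way. Of the other cell types, 1 of 8 tested leukocyte, 2 of 5 endothelial, 3 of 5 fibroblast and 5 of 5 erythroid markers were higher, and 1 endothelial and 2 fibroblast markers were lower. The summed CPM of the erythroid list was 30.0 and 13.1 for normal pancreas, and for tumour 245, 593 and 199. The part of these differences in tissue and library make-up in the histone results was not tested.

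The stem-loop was found at the end of nearly all members for which the annotation reaches that far. The search used the 16-base histone stem-loop, with arms that open with GG and close with CC, pair throughout (G with T allowed) and hold T and A next to a 4-base loop, on the coding strand within 200 bases after the stop codon, in transcripts with at least 60 annotated bases there. It was present in 44 of 48 members (91.7%) and in 75 of 20489 other protein-coding genes (0.366%). With its loop left free, the search pattern reads alike on both strands, and on the opposite strand it matched 44 members and 70 other genes. The remaining 19 protein-coding members have fewer annotated bases after the stop codon. The sequences, from the GENCODE M21 transcripts, are those of members whose levels are described further on, chosen to show how little the stem-loop varies between classes, with the motif in capitals and 5 bases on either side.
Hist1h1c: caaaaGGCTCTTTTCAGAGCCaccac
Hist1h2bg: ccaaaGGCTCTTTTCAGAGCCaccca
Hist2h3c2: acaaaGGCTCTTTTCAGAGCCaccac
Hist1h3e: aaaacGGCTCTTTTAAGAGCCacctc
Hist1h4d: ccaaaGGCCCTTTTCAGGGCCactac
Hist4h4: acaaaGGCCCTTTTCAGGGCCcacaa

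The motif as in Hist1h1c was shared by 25 members of classes H1, H2A, H2B and H3. The form in Hist1h4d was shared by 6 members, all H4. In Hist1h1c the motif began 24 bases after the stop codon and the annotated transcript went on for another 840 bases. The 4 members searched without a match were the H2B genes Hist1h2bc, Hist2h2be, Hist1h2bq and Hist1h2br, each annotated with over 500 bases after the stop codon. The search read annotated transcripts, not the genome. The genes Hist1h2bc, Hist1h2bq and Hist1h2br span more of the genome than their longest transcripts (1156, 2015 and 2197 bases). A stem-loop in a stretch that splicing removes would not be seen, so these genes may still hold it. Among the histone genes outside the clusters, the H2A variant gene H2afx carried the motif.

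The regions before the start sites differed by class. RefSeq promoters (GRCm38.p6, 250 bases before to 50 after the start) were matched to 62 members and searched on both strands. The TATA motif TATAAA was present in 56.5% of them and in 14.2% of all 27025 promoters in the table. The CCAAT box was present in 100% of the H1, H2A, H2B and H3 promoters and in 25% of the 12 H4 promoters, beside 37.9% of all promoters. The octamer ATTTGCAT, the letters bound by the POU factor that Pou2f1 encodes, was present in 38.9% of H2A and 37.5% of H2B promoters, in no H1, H3 or H4 promoter, and in 1.75% of all promoters. The searched regions of neighbouring H2A and H2B genes on opposite strands can overlap. The same site can then count for both classes, as the octamer does for Hist1h2ae and Hist1h2bg, so these shares are not independent. The letters GGTCCG, which belong to the H4 subtype-specific element bound by the protein Hinfp, were present in 91.7% of H4 promoters and in 8.39% of all promoters. The 150 bases before the start are shown for an H2B, an H2A and an H4 gene, with these motifs in capitals on either strand, because the H2B and H4 gene were among those that differed most between the tissues and the H2A gene shares its promoter region with Hist1h2bc, a gene of another pattern. They are Hist1h2bg (chr13:23571250-23571399, plus strand), Hist1h2ac (chr13:23683960-23684109, minus strand) and Hist1h4d (chr13:23581418-23581567, plus strand).
Hist1h2bg: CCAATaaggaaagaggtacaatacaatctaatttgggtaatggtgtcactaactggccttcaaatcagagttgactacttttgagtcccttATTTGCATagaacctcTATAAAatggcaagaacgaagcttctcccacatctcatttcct
Hist1h2ac: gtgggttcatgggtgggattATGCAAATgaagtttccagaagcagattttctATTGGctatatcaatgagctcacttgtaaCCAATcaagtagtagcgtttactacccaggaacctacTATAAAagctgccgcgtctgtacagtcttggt
Hist1h4d: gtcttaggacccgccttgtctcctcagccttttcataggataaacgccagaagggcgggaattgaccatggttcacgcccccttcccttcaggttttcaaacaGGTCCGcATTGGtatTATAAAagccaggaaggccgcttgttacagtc

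Levels are given as TMM-scaled CPM or as TPM (per length, comparable between genes of a library). TMM-scaled CPM sets counts against a library's total times its TMM factor. It is not a share of the reads: the 10 acinar markers alone summed to 1265799 and 1298535 CPM in the normal libraries. CPM values can be compared between libraries only as far as the TMM scaling holds. Its factors were 0.271 and 0.263 in normal pancreas and 2.19 to 2.57 in tumour. All 70 members summed to 424 and 432 CPM in the normal libraries and 464, 654 and 534 CPM in the tumour libraries. The mean sum was 1.29 times higher in tumour on this scale and 6.98 times higher in TPM (141 and 140.4 against 910.1, 1252 and 781 TPM). What filled the TPM total differed between the tissues. A list of small RNAs without a poly(A) tail (16 rows) held 713414, 697196 and 697429 TPM in tumour, against 95.9 and 23.9 TPM in normal pancreas. The 10 acinar markers held 425973 and 422482 TPM in normal pancreas, against 103, 36.6 and 955 TPM in tumour. TPM differences between the tissues, here and below, rest on these unlike totals. As a share of all counts the members took 0.0115% and 0.0113% of the normal libraries, against 0.116%, 0.168% and 0.117% of the tumour libraries. How far the total differed thus depended on the scale, while the make-up by class differed within each library's own counts. In normal pancreas 10 members held 98.8% of the members' counts, and H1 genes alone 51.6% and 49.4%. In tumour H1 genes held 16.2%, 15.1% and 15.99%, and H4 genes, at 1.18% and 1.25% in the normal libraries, held 33.1%, 31.3% and 29.0%.

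**Figure D1:**
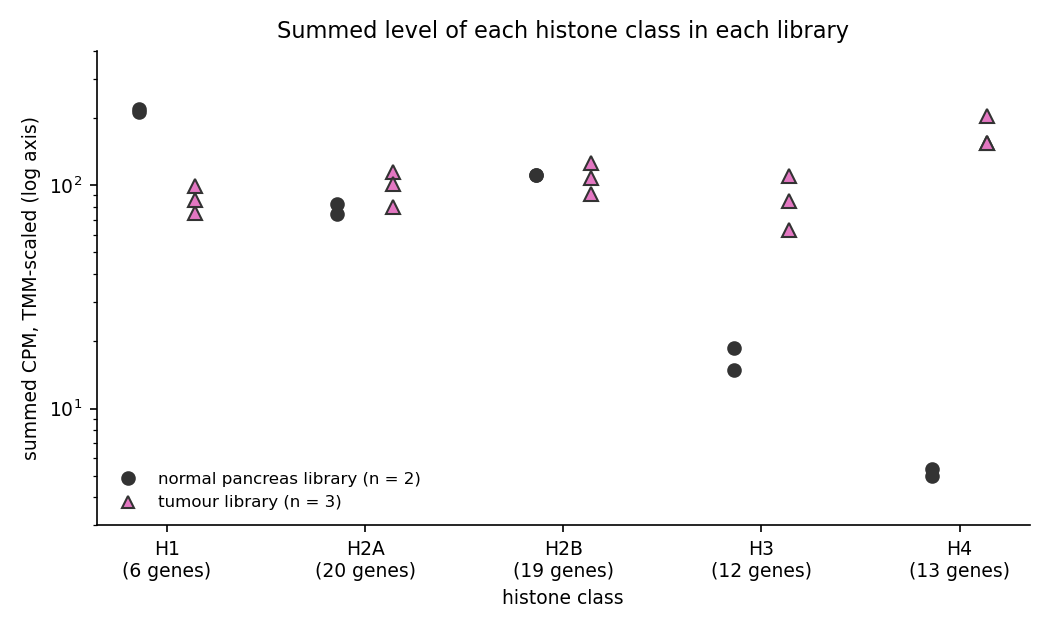
Summed TMM-scaled CPM of each histone class (log axis) in each of the 2 normal pancreas libraries (circles) and 3 tumour libraries (triangles). The H4 sums lie at 4.99 and 5.38 CPM in normal pancreas and from 154 to 205 CPM in tumour, while the H1 sums are lower in every tumour library than in both normal ones on this scale, but not in TPM.

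The class sums separated the tissues in both directions. H4 genes summed to 4.99 and 5.38 CPM in the normal libraries, against 154, 205 and 155 CPM in tumour. H3 genes summed to 14.9 and 18.7 CPM against 63.2, 110.5 and 85.1 CPM. H1 genes summed to 219 and 213 CPM in the normal libraries, against 75.5, 98.9 and 85.4 CPM in tumour. On the CPM scale the H3 and H4 sums were thus higher, and the H1 sum lower, in every tumour library than in both normal libraries. H2A genes (74.7 and 82.7 CPM against 80.2, 115 and 101.0 CPM) and H2B genes (111 and 112 CPM against 91.5, 126 and 108 CPM): the H2B sums overlapped between the tissues in CPM, and the H2A sum of tumour replicate 1 lay between the normal ones. In TPM neither class overlapped, with H2A at 54.9 and 56.9 against 193, 266 and 185 TPM and H2B at 30.5 and 29.8 against 174.5, 257 and 153 TPM. On the TPM scale no class sum was lower in tumour on average: the H1 sum was 44.5 ± 2.06 TPM (SD, n = 2) for normal pancreas, against 50.04 ± 9.35 TPM (SD, n = 3) for tumour, and the H4 sum 4.01 ± 0.127 against 371 ± 94.3 TPM. Sums were not tested.

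Of the clusters, Hist1 summed to 332 and 327 CPM in the normal libraries, against 381, 546 and 430.3 CPM in tumour, with 45 of its 49 tested members higher and 3 lower. Hist2 summed to 80.6 and 90.4 CPM against 60.7, 82.2 and 80.3 CPM, with 6 of 9 higher and 2 lower. Hist3 summed to 11.4 and 14.6 CPM against 17.2, 15.4 and 17.0 CPM, with 2 of 3 higher. In CPM the sums of Hist2 overlapped between the tissues, while every tumour library lay above both normal ones in the sums of Hist1 and Hist3. In TPM Hist2 did not overlap either, at 58.4 and 61.4 against 141, 179.6 and 145 TPM.

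Gene by gene, the members were read from an edgeR quasi-likelihood fit over all 16810 genes that passed the filter on low counts, and those with an adjusted p below 0.05 are called higher or lower. Of the 70 members, 62 passed the filter. Of these, 54 were higher in tumour, 5 were lower (Hist1h1c, Hist1h2bc, Hist2h2aa2, Hist2h3c2 and Hist1h2be, all 5 of which turn positive with total counts) and 3 did not pass the threshold. Over all genes tested, 39.2% were higher and 27.8% lower. Most of the 54 had next to no counts in normal pancreas: 39 of the 70 members had 0 counts in both normal libraries together and 55 had fewer than 10. Such a gene passes the filter only through its tumour counts and then has to differ, so the 54 is no support for a common direction. The same holds for the counts of higher members by class and by cluster, which stand beside the same shares of all genes. The median log2 fold change of the 62 was 7.55, or 4.90 with members without normal counts at their lower bound. With total counts in place of TMM scaling, all 62 were higher, beside 93.3% of all genes (2.37% lower), and the median log2 difference of all genes tested moved from 0.38 to 3.55. With limma on log2(TPM + 1), 55 members were higher and 1, Hist1h1c, lower, beside 63.4% and 6.98% of all genes. Directions below are therefore relative to the TMM-scaled bulk of genes.

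Each tumour library lay above both normal libraries in 55 of the 62 tested members, beside 46.8% of all genes tested, and below both in 6 members, beside 34.2%. The 55 held all 52 tested members with under 50 normal counts. Of the 10 members with 50 or more, 3 lay above and 6 below. Members with 0 normal counts pass the filter only through tumour counts and cannot lie below, so the 55 is no support for a common direction either. Tumour replicate 2 was the highest of the 3 tumour libraries in 46 of the 62, and replicates 1 and 3 in 8 each.

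**Figure D2:**
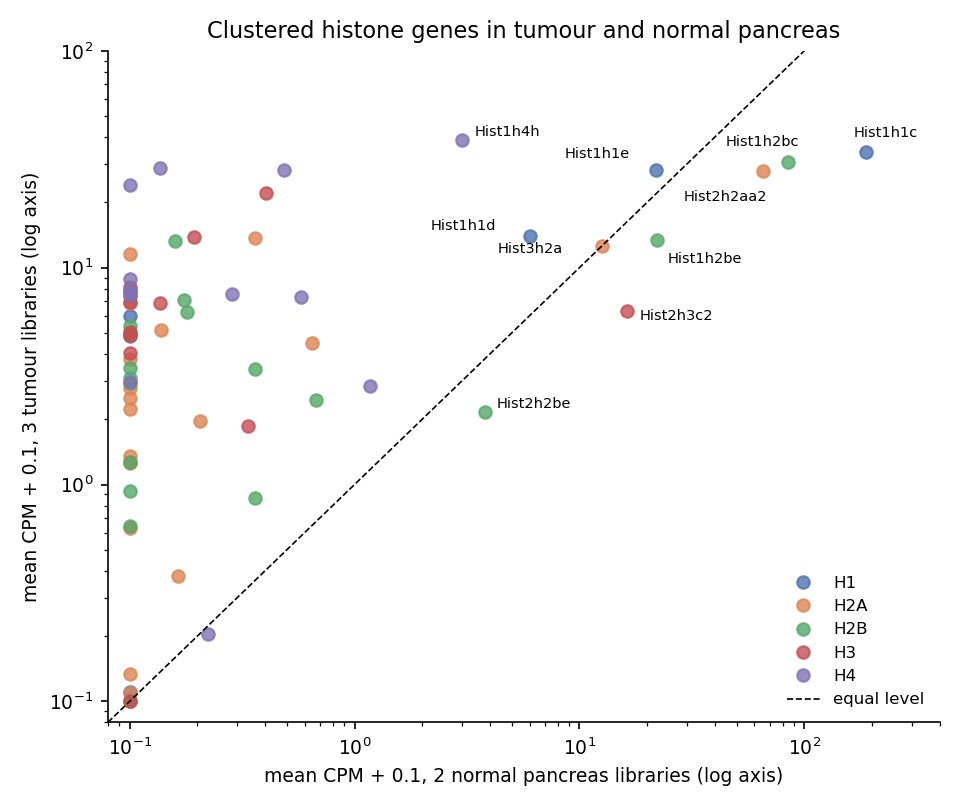
Mean TMM-scaled CPM of each of the 70 members in normal pancreas (2 libraries) against tumour (3 libraries), both with 0.1 added and on log axes, coloured by class, with the 10 members of 50 or more normal counts named and a dashed line at equal level. The column at the left edge holds the members with 0 normal counts, which reach 24.0 CPM in tumour.

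The 10 members with 50 or more counts in normal pancreas summed to 419 and 426 CPM in the normal libraries, against 182, 224 and 214 CPM in tumour, below both normal libraries in each tumour library. In TPM the order was the other way, with 138 and 138 TPM in normal pancreas and 248, 289 and 218 TPM in tumour. Of the 10, 5 were lower in tumour, 2 were higher (Hist1h4h and Hist1h1d) and 3 did not pass (Hist1h1e, Hist3h2a and Hist2h2be). The other 60 members summed to 5.28 and 5.29 CPM in the normal libraries, against 282, 430.2 and 320.5 CPM in tumour. The division uses the normal levels themselves, so it is a description.

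**Figure D3:**
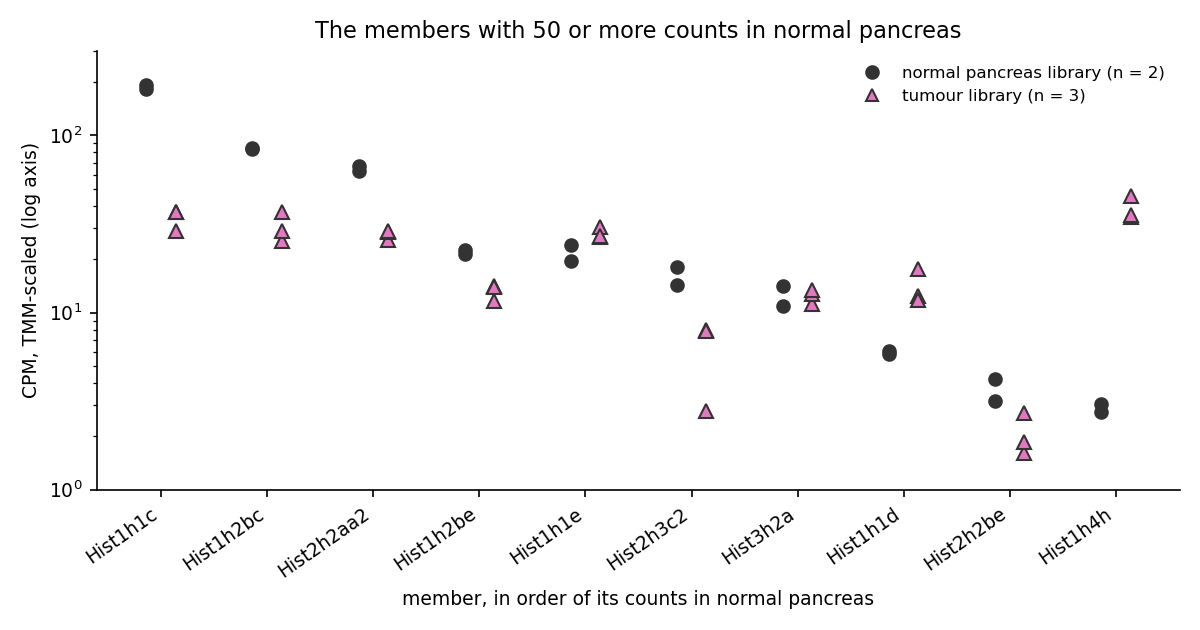
TMM-scaled CPM (log axis) of the 10 members with 50 or more counts in normal pancreas, in the 2 normal (circles) and 3 tumour libraries (triangles). Hist1h1c stands at 193 and 183 CPM in normal pancreas and between 28.9 and 36.7 CPM in tumour, a direction that turns with total counts, and Hist1h4h, at the right, stands at 2.75 and 3.05 CPM in normal pancreas and at 34.7 CPM or more in tumour.

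Among the linker histone genes, Hist1h1c (chr13:23738808-23740367), which encodes the H1 subtype H1.2, was the most abundant member in normal pancreas by CPM. It stood at 193 and 183 CPM there and at 28.9, 36.7 and 36.7 CPM in tumour, a log2 fold change of -2.47 (SE 0.16, adjusted p = 6.5e-05). The groups did not overlap. With total counts the sign turned (0.71), while on the log2(TPM + 1) scale it stayed lower, at 40.6 ± 2.5 TPM (SD, n = 2) against 19.96 ± 2.2 TPM (SD, n = 3). Hist1h1a and Hist1h1b, H1 genes known for their use in dividing cells, had 0 counts in both normal libraries. Hist1h1a had 3.85, 7.09 and 6.65 CPM in tumour, at least 49.8-fold higher (adjusted p = 0.00043), and Hist1h1b had 3.83, 7.06 and 3.39 CPM, at least 44.6-fold higher (adjusted p = 0.00079). These bounds set the tumour counts against 3 counts over both normal libraries, or 0.112 CPM. With either normal library left out the floor stands against a single library and such bounds fall, to 25.2-fold and 24.6-fold for Hist1h1a. Hist1h1d was measured at 5.83 and 6.05 CPM in the normal libraries, against 12.4, 17.5 and 11.8 CPM in tumour (log2 fold change 1.23, SE 0.23, adjusted p = 0.0035). Hist1h1e, at 19.6 and 24.1 CPM against 26.6, 30.6 and 26.9 CPM, did not pass (0.36, SE 0.16, adjusted p = 0.081), though it did with limma on log2(TPM + 1) (1.56, adjusted p = 0.00067). Of the 5 H1 genes tested, 3 were higher and 1 lower.

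The H2A class, with 14 of 16 tested members higher and 1 lower, was led by Hist2h2aa2 in both tissues. It stood at 62.9 and 67.5 CPM in normal pancreas and at 25.7, 28.3 and 29.0 CPM in tumour (log2 fold change -1.24, SE 0.13, adjusted p = 0.00035). In TPM the order was the other way, with 53.6 ± 1.0 (SD, n = 2) for normal pancreas, below the 65.3 ± 6.0 (SD, n = 3) of tumour, and with total counts the log2 fold change was 1.94. None of its 50-base windows is unique, since Hist2h2aa1 is a near copy, so the split of reads between them is uncertain. Hist2h2aa1 had 0 and 0.524 CPM in the normal libraries, against 8.11, 16.3 and 16.6 CPM in tumour (log2 fold change 5.68, SE 0.78, adjusted p = 0.0011). Its ratio of 48.6 fell to 24.6 without normal pancreas replicate 1. The pair summed to 62.9 and 68.0 CPM against 33.8, 44.6 and 45.6 CPM, so the CPM sum was lower in each tumour library. In TPM the direction turned, with 52.8 and 54.6 against 85.7, 104 and 87.2 TPM. The lncRNA gene Gm20634, named here after its values were seen because it shares sequence with several Hist2 members, went from 89.8 and 102 CPM to 6.92, 3.71 and 6.13 CPM (log2 fold change -4.11, SE 0.27, adjusted p = 6.8e-05).

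The H2A genes with the smallest p among the higher ones were seen at most at a trace in normal pancreas. Hist1h2ap had 0 normal counts and 9.48, 15.6 and 9.16 CPM in tumour, at least 105-fold higher (adjusted p = 0.00022). Hist1h2ab had 0 normal counts and 4.62, 8.19 and 7.47 CPM in tumour, at least 57.8-fold higher (adjusted p = 0.00032). Hist2h2ac had 1.02 estimated counts in normal pancreas and 4.12, 5.46 and 5.66 CPM in tumour, a ratio of 131 with a 95% interval from 23.4 to 5196 that covers counting error only (adjusted p = 0.00023). Without normal pancreas replicate 1 or 2 the bounds of Hist1h2ap fell to 53.3-fold and 51.9-fold, those of Hist1h2ab to 29.3-fold and 28.5-fold, and the values of Hist2h2ac to 22.2-fold (a bound) and 64.8-fold. Hist3h2a, whose annotated transcript runs 1700 bases past the stop codon, did not pass, at 10.9 and 14.1 CPM against 11.1, 12.8 and 13.4 CPM (log2 fold change -0.01, SE 0.18, adjusted p = 0.97). In TPM it stood at 1.895 ± 0.30 (SD, n = 2) and 5.11 ± 0.36 (SD, n = 3), and its sign turned with total counts (3.17).

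Of the 18 H2B genes tested, 15 were higher and 2 lower. Hist1h2bc (chr13:23684199-23692908) had 83.7 and 84.8 CPM in the normal libraries, against 25.4, 29.0 and 37.1 CPM in tumour (log2 fold change -1.47, SE 0.18, adjusted p = 0.00071). In TPM its levels were 25.5 ± 0.40 (SD, n = 2) and 25.1 ± 1.6 (SD, n = 3), and limma on log2(TPM + 1) did not call it (adjusted p = 0.87). With total counts its log2 fold change was 1.70. Hist1h2be was also lower, at 22.5 and 21.5 CPM against 11.7, 14.2 and 13.9 CPM (log2 fold change -0.73, SE 0.15, adjusted p = 0.0049), but positive with total counts (2.45) and on log2(TPM + 1) (0.38). Its annotated gene (chr13:23583670-23621124) overlaps Hist1h1e on the same strand, so reads of these genes may be split. Hist2h2be, at 3.18 and 4.198 CPM against 2.71, 1.61 and 1.87 CPM, did not pass (-0.83, SE 0.35, adjusted p = 0.072), and passed with tumour replicate 1 left out (-1.08, adjusted p = 0.031). Its sign turned with total counts (2.35) and on log2(TPM + 1) (0.21).

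Most other H2B genes had few or no counts in normal pancreas. Hist1h2bg had 1.59 normal counts and 12.8, 15.6 and 11.3 CPM in tumour, a ratio of 182 (95% interval 50.3 to 1507, adjusted p = 9.1e-05). Without normal pancreas replicate 2, which held these counts, it was at least 59.9-fold higher, and without replicate 1 the ratio was 92.3. Hist1h2bb had 0 normal counts and 5.60, 9.29 and 8.27 CPM in tumour, at least 66.7-fold higher (adjusted p = 0.00022). Hist2h2bb had 0 normal counts and 3.92, 5.71 and 5.14 CPM, at least 43.0-fold higher (adjusted p = 0.00026). Without normal pancreas replicate 1 or 2 their bounds were 33.8-fold and 32.9-fold, and 21.8-fold and 21.2-fold. All 3 were above both normal libraries in every tumour library. 

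H2B genes with long annotated ends were found at several levels, and H2B members without such ends are given after them. Hist1h2bh, 1258 bases past the stop codon, had 0.844 and 0.303 CPM in the normal libraries, against 1.84, 2.74 and 2.50 CPM in tumour (log2 fold change 2.06, SE 0.53, adjusted p = 0.014), and lost its call without normal pancreas replicate 2 (1.51, adjusted p = 0.071), while without replicate 1 it was 2.98 (adjusted p = 0.018). Hist1h2bq and Hist1h2br, near copies with 2.68% and 11.3% of their windows unique, had 0 normal counts and were at least 52.8-fold and 28.0-fold higher (adjusted p = 0.0022 and 0.0017), or 26.0-fold and 13.8-fold without normal pancreas replicate 2. Hist3h2ba has its annotated end 213 bases past the stop codon. It had 0.378 and 0.147 CPM against 5.24, 1.89 and 2.84 CPM (log2 fold change 3.65, SE 0.70, adjusted p = 0.0043), with tumour replicate 1 the highest. Its ratio of 13.6 became 24.1 without normal pancreas replicate 1 and 8.36 without tumour replicate 1. The weakest calls of the class were the pseudogene Hist3h2bb-ps (log2 fold change 1.54, SE 0.56, adjusted p = 0.046), which lost its call with any 1 library left out and moved to 2.32 without normal pancreas replicate 2, and Hist1h2bp (at least 5.402-fold, adjusted p = 0.036), which lost it without either normal library and on log2(TPM + 1) (adjusted p = 0.076). The bound of Hist1h2bp was 2.74-fold and 2.67-fold without normal pancreas replicate 1 or 2, and 2.23-fold without tumour replicate 2, its highest library.

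Of the 11 H3 genes tested, 10 were higher and 1 lower, with the smallest p for Hist1h3e and Hist1h3f. Hist1h3e had 0.274 and 0.335 CPM in the normal libraries, against 19.5, 26.7 and 19.6 CPM in tumour (log2 fold change 6.01, SE 0.30, adjusted p = 3.2e-05). Hist1h3f had 0.104 and 0.084 CPM against 11.7, 17.4 and 11.9 CPM (ratio 124, 95% interval 42.5 to 604, adjusted p = 4.5e-05). With either normal library left out that ratio, on counts rounded to whole numbers, was 189 or 184. Only 26.6% of the 50-base windows of Hist1h3e are unique, and Hist1h3f is the gene it shares most with, so their separate values are uncertain. Hist2h3b had 0 normal counts and 5.26, 7.85 and 7.41 CPM in tumour, at least 59.1-fold higher (adjusted p = 0.00019), or 29.9-fold and 29.2-fold without normal pancreas replicate 1 or 2. Hist1h3d, with an annotated end 799 bases after the stop codon, had 0.227 and 0.244 CPM against 1.92, 1.82 and 1.54 CPM (log2 fold change 2.95, SE 0.47, adjusted p = 0.0019). Hist2h3c2 was the only H3 gene with more than 10 normal counts, and went from 14.3 and 18.0 CPM to 2.79, 7.94 and 7.84 CPM (log2 fold change -1.40, SE 0.43, adjusted p = 0.026). It lost its call without normal pancreas replicate 1 (-1.55, adjusted p = 0.077) or replicate 2 (-1.20, adjusted p = 0.15), and its sign turned with total counts (1.78). In TPM it stood at 5.66 ± 0.78 (SD, n = 2) and 5.85 ± 2.6 (SD, n = 3). Of its 50-base windows 36.5% are unique, and it shares most with Gm20634, so its separate value is uncertain.

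H4 was the class with the highest summed TPM in tumour. All 12 of its tested members were higher, but 9 of the 13 H4 genes had fewer than 10 normal counts, so the limit of the filter applies. Hist1h4h (chr13:23531050-23531519) had the highest mean TPM of all members in tumour. It rose from 2.75 and 3.05 CPM to 34.7, 45.7 and 35.4 CPM (log2 fold change 3.75, SE 0.21, adjusted p = 4.2e-05), or from 2.83 ± 0.11 TPM (SD, n = 2) to 110.4 ± 25 TPM (SD, n = 3). Hist1h4n had 0 normal counts and 26.3, 28.5 and 17.3 CPM in tumour, at least 229-fold higher (adjusted p = 9.6e-05), with 14.4% of its windows unique, and the bound was 116-fold and 113-fold without normal pancreas replicate 1 or 2. Hist1h4d had 1 count in normal pancreas and 25.1, 30.8 and 29.9 CPM in tumour, a ratio of 753 with a 95% interval from 135 to 29769 (adjusted p = 2.6e-05). Without normal pancreas replicate 2, which held that count, it was at least 124-fold higher, and without replicate 1 the ratio was 382.

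Further H4 genes showed the same contrast at other levels. Hist1h4c went from 0.463 and 0.312 CPM to 23.6, 33.9 and 27.0 CPM (log2 fold change 6.21, SE 0.31, adjusted p = 3.2e-05). Hist2h4, of the Hist2 cluster, went from 0.151 and 0.221 CPM to 7.50, 8.46 and 6.37 CPM (log2 fold change 5.28, SE 0.36, adjusted p = 7.3e-05). Hist4h4, the single member of its cluster, had 0 normal counts and 5.79, 10.7 and 6.72 CPM in tumour, at least 70.0-fold higher (adjusted p = 0.00034), or 35.5-fold and 34.5-fold without normal pancreas replicate 1 or 2. The smallest H4 difference was that of Hist1h4i, at 1.24 and 0.900 CPM against 2.46, 3.32 and 2.43 CPM (log2 fold change 1.38, SE 0.37, adjusted p = 0.016), which lost its call without normal pancreas replicate 2 (adjusted p = 0.094).

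The 8 members outside the test were Hist1h1t, Hist1h2aa, Hist1h2ba, Hist1h2ao, Hist1h2aj, Hist1h2al, Hist2h3c1 and Hist1h4m. Hist1h1t, Hist1h2aa and Hist1h2ba are the testis-specific members. Hist1h2aa and Hist1h2ba had 0 counts in all 5 libraries, and Hist1h1t had 0.031 CPM in tumour replicate 2 and 0 elsewhere. Hist2h3c1 was also at 0 everywhere, and none of its windows is unique. Hist1h2ao and Hist1h4m had counts in tumour replicate 1 (0.835 and 0.316 CPM) and 0 in the other tumour libraries. In normal pancreas Hist1h2ao had 0 and 0.130 CPM and Hist1h4m 0.0756 and 0.172 CPM. They are near copies of Hist1h2ap and Hist1h4n.

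Members were also divided by whether an annotated transcript ends over 500 bases after the stop codon, with or without a stem-loop before that end. Of the 10 members with 50 or more normal counts, 7 have a transcript that ends over 500 bases after the stop codon, against 10 of the other 60. All of the first 10, but only 38 of the other 60, have at least 60 annotated bases after the stop codon. In the rest a longer end could not be seen. Of the 16 tested members with such a transcript, 10 were higher and 3 lower, with a median log2 fold change of 2.50. Of the 45 tested protein-coding members without one, 43 were higher and 2 lower, with a median of 8.55. That median was 5.38 when members without normal counts stand at their lower bound. Of these 45, 16 have fewer than 60 annotated bases after the stop codon (all 16 higher, median 9.04, or 4.79 with bounds). For these 16 a longer end may be missing from the annotation. Reads past an annotated end may go uncounted, and the part of this in the contrast was not tested. The medians carry the effect of the filter described above, the median of all genes tested was 0.38, and no test was made. A polyadenylation signal (AATAAA or ATTAAA) in the last 50 annotated bases was present in some members with a stem-loop: 9 of the 12 tested with the signal were higher and 2 lower (median 3.82, or 3.70 with bounds), and of the 29 tested without it 26 were higher and 2 lower (median 7.29, or 5.93 with bounds). The division by transcript end was not absolute. Hist2h3c2 and Hist2h2aa2 had 50 or more normal counts with annotated ends 423 and 109 bases after the stop codon. Of their windows 36.5% and 0% are unique, so how many of these counts are their own is uncertain. Hist4h4 and the extended H2B genes Hist1h2bq and Hist1h2br had 0 normal counts with ends 2515, 823 and 823 bases after the stop codon.

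**Figure D4:**
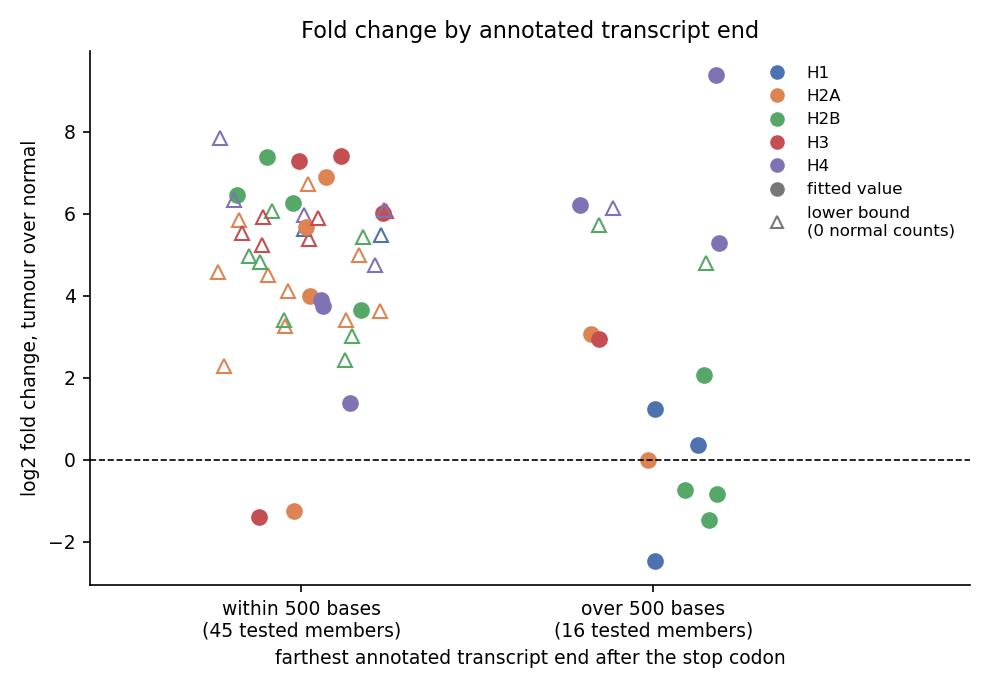
Log2 fold change of the 61 tested protein-coding members, tumour over normal, divided by whether the farthest annotated transcript end lies within or over 500 bases after the stop codon. Filled circles are fitted values, open triangles lower bounds for members with 0 normal counts, and colours give the class. Of the 5 members lower in tumour with TMM scaling, none of them with total counts, 3 stand in the right column and 2 in the left.

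In 14 places an H2A and an H2B gene, on opposite strands, face away from each other with fewer than 500 bases between their annotated starts. Such pairs share 1 promoter region. The 14 include the pseudogenes Hist1h2aj and Hist3h2bb-ps. In 8 of the 14 both genes were higher in tumour, while 39.2% of all genes tested were higher. In these 8 pairs no gene had a mean above 0.14 TPM in normal pancreas. The limit of the filter described above applies, so the 8 is no support for a common direction. Levels within the pairs were often unequal. Hist1h2bf and Hist1h2ad, 184 bases apart, had 2.52 ± 1.5 and 2.60 ± 1.8 TPM (SD, n = 3) in tumour, though Hist1h2ad lost its call without normal pancreas replicate 1 or 2 (adjusted p = 0.052 in both). Hist1h2ae and Hist1h2bg, 175 bases apart, had 4.13 ± 1.4 and 25.01 ± 6.2 TPM. Hist1h2ac and Hist1h2bc differed most in normal pancreas of the 14 pairs, and lie 250 bases apart around the promoter printed above. In normal pancreas Hist1h2ac had 0.070 TPM and Hist1h2bc 25.5 TPM, and in tumour they had 1.55 ± 0.42 and 25.1 ± 1.6 TPM. TPM rests on annotated lengths, which in GENCODE M21 are 2482 bases for Hist1h2ac and 1156 bases for Hist1h2bc. The stem-loop of Hist1h2ac begins 32 bases after the stop codon. How far RNA that ends there would change its TPM was not tested. Hist1h2ac rose (0.628 and 0.468 CPM against 3.47, 5.54 and 4.13 CPM, log2 fold change 3.06, SE 0.40, adjusted p = 0.00085) while Hist1h2bc fell with TMM scaling, but not with total counts or in TPM. Both have annotated transcripts over 500 bases past the stop codon.

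Other genes of S phase were set beside the members. The 32 replication genes (helicase, polymerase and nucleotide synthesis genes, with polyadenylated mRNA) summed to 86.5 and 79.0 CPM in the normal libraries, against 161, 230.1 and 248 CPM in tumour. Of them 23 were higher, 0 lower, with a median log2 fold change of 1.58. The replicative helicase subunit gene Mcm6 (2.27 and 1.92 CPM against 17.7, 25.4 and 24.2 CPM, log2 fold change 3.42, adjusted p = 8.6e-05) and the DNA polymerase alpha gene Pola1 (log2 fold change 3.48, adjusted p = 0.00014) had the smallest p. The 10 cycling markers summed to 2.04 and 1.69 CPM in the normal libraries, against 50.2, 85.1 and 78.8 CPM in tumour. Among these, Mki67 went from 0.529 and 0.295 CPM to 19.2, 31.0 and 30.3 CPM and Top2a from 0.227 and 0.516 CPM to 11.5, 18.9 and 18.6 CPM. Among the tumour libraries, replicate 1 was lowest in the cycling sum and in the summed CPM of the clustered histone genes. In TPM replicate 1 was again lowest in the cycling sum (13.2, 23.9 and 18.2 TPM). The clustered histone sum in TPM was lowest in replicate 3 (910.1, 1252 and 781 TPM).

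Scaled so that the replication genes stood at equal level in all libraries, 48 of the 62 tested members were higher and 8 lower, while over all genes 17.2% were higher and 51.0% lower. On this scale 11 of the 12 tested H4 members were higher and Hist1h4i did not pass (-0.16, adjusted p = 0.84), and the 10 members with 50 or more normal counts held 1 higher and 8 lower. Hist1h1c was lower there (adjusted p = 2.8e-15) and so was Hist1h1e (adjusted p = 0.0088). Scaled on the 12 histone genes outside the clusters, 55 were higher and 4 lower, beside 46.2% and 19.4% of all genes. There the 10 members with 50 or more normal counts held 3 higher and 4 lower. Members with 0 normal counts cannot come out lower on any scale, so neither the 48 nor the 55 is support for a common direction.

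The histone genes outside the clusters, most of which are known for polyadenylated mRNA (H2afx carries the stem-loop), summed to 974 and 965 CPM in normal pancreas against 288, 343 and 324 CPM in tumour. In TPM the sums overlapped, at 229 and 214 against 237, 265 and 202 TPM. Of the 12, 5 were lower and 5 higher. H1f0, the linker histone of resting cells, went from 431 and 458 CPM to 30.8, 23.9 and 34.4 CPM (log2 fold change -3.91, SE 0.21, adjusted p = 3.5e-05). H3f3b, which encodes the replacement histone H3.3, went from 262 and 246 CPM to 70.8, 91.0 and 83.8 CPM (log2 fold change -1.63, SE 0.17, adjusted p = 0.00030), and turned sign with total counts (1.55). The macroH2A genes H2afy2 (3.35, SE 0.29, adjusted p = 0.00015) and H2afy (1.13, SE 0.15, adjusted p = 0.00086) were higher. H1f0 and Hist1h1c, the pair of H1 genes that were abundant in normal pancreas, were thus both lower with TMM scaling, which for Hist1h1c turns with total counts.

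**Figure D5:**
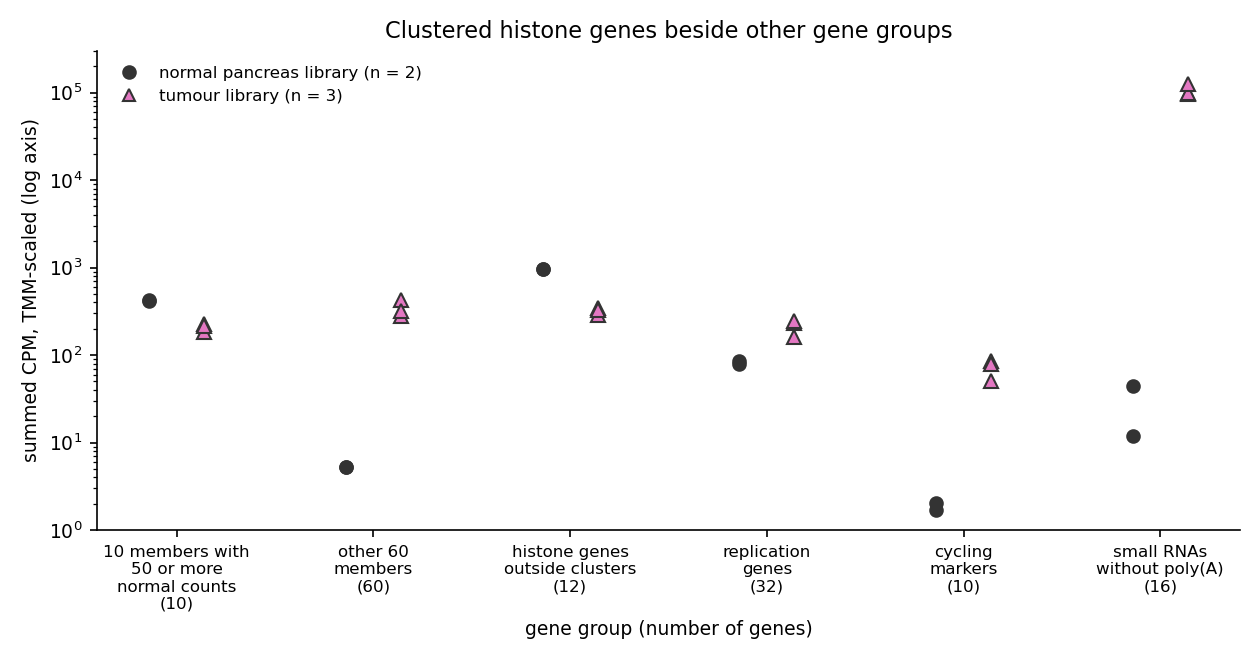
Summed TMM-scaled CPM (log axis) of 6 gene groups in each normal (circles) and tumour library (triangles). The 10 members with 50 or more normal counts and the histone genes outside the clusters are lower in all tumour libraries on this scale, and the other 60 members, the replication genes, the cycling markers and the small RNAs without a poly(A) tail are higher.

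Small RNAs without a poly(A) tail were also close to absent from the normal libraries. All 13 tested rows of this list were higher, with a median log2 fold change of 10.39. Scarna2, a Cajal body RNA, had 0.151 and 0.295 CPM in the normal libraries, against 122, 129 and 126 CPM in tumour (log2 fold change 9.10, SE 0.27, adjusted p = 1.2e-05). The RNA of RNase MRP, Rmrp, occurs in 2 rows, the higher with 5 and 2 normal counts and 1291, 2530 and 1963 CPM in tumour. The part of library preparation in the difference of the clustered histone genes was not tested, and preparation and tissue cannot be told apart here.

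Of 21 genes that make and process histone mRNA, 10 were higher and 5 lower, shares near those of all genes (39.2% and 27.8%), with a median log2 fold change of 0.37. Npat, the histone gene coactivator (2.57 and 2.95 CPM against 16.4, 13.97 and 16.1 CPM, log2 fold change 2.48, adjusted p = 9.3e-05), and Srrt (1.901, adjusted p = 0.00013) were higher. Lsm10, a subunit of the U7 particle (-1.24, adjusted p = 0.0063), and Ints3 (-0.65, adjusted p = 0.0072) were lower, and both turned sign with total counts and on log2(TPM + 1). Lsm10 lost its call without normal pancreas replicate 1 (adjusted p = 0.061) and Ints3 without replicate 2 (adjusted p = 0.070). Slbp, named for its role after its values were seen, had 4.54 and 3.09 CPM in the normal libraries, against 5.18, 9.11 and 7.55 CPM in tumour (0.93, SE 0.32, adjusted p = 0.039), and lost its call without either normal library or without tumour replicate 2 or 3, and with the length offset (0.85, adjusted p = 0.062). Of 20 histone chaperone and assembly genes, 10 were higher and 1 lower, beside the same shares of all genes, with a median of 0.55. Hjurp, the chaperone of the centromeric histone (2.11, adjusted p = 9.0e-05), and Atrx (2.13, adjusted p = 0.00012) were higher, and Asf1a (-1.13, adjusted p = 0.0048) was lower, though not with total counts (2.05).

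Many members are near copies of each other, and the deposited counts split shared reads between them. In 36 members at least 50% of the 50-base windows occur in no other gene. Of the 33 of these that were tested, 27 were higher and 3 lower, with a median log2 fold change of 6.21.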

How the data were processed

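Gene tables of 5 mouse RNA-seq libraries were used. The tools the authors list are Trim Galore 0.60, STAR 2.7 and RSEM 1.31, and the builds mm10 and GRCm38, per the submitters' processing notes. The authors deposited estimated counts (expected counts) and TPM values per gene. Effective lengths, a value of another kind in bases, were deposited beside them. The sources used here state no strandedness and no annotation release. RSEM divides reads shared between genes, which touches near-identical histone genes. All 70 identifiers equal those of GENCODE M21 (GRCm38), used for positions and transcripts.

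After rounding, the counts were fitted in edgeR 4.0.16 under R 4.3.3 (glmQLFit and glmQLFTest, TMM, filterByExpr, Benjamini-Hochberg over 16810 genes). Each SE was taken as the size of the log2 fold change over the root of the F statistic. TMM factors ran from 0.263 and 0.271 in normal pancreas to between 2.19 and 2.57 in tumour. Scaling to a gene list used the median ratio over its genes with counts in every library. The code was tested on simulated data. Folds for genes with 0 normal counts are lower bounds against 3 counts over the group. For 1 to 3 counts, ratios of rounded counts have 95% exact binomial intervals. Both cover counting error only. Labels do not tie each library to its own animal, so p-values speak of the spread among these libraries alone.

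Any member could be named. Full values go to the 3 smallest p, the highest tumour TPM and the highest normal TPM of each class, to members called lower and to tested members ending over 500 bases after the stop codon. From other lists, up to 2 genes per direction with the smallest p are named, and marker lists of other cell types are given as counts. Members and lists were chosen with earlier results of these data known. Alternatives were total counts, upper-quartile scaling, DESeq2 1.42.0, limma 3.58.1 on log2(TPM + 1) and log2(TPM + 0.1), no filter, protein-coding genes only, a length offset, tumour replicates 1 and 2 summed, a fold change of 2 as the null and each library left out.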

Additional observations from a re-analysis of the deposited data

How the results depend on the processing

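The count of members higher in tumour (54) stayed within 1.5 times, and that of lower members at 4 to 6, under upper-quartile scaling, DESeq2, no filter, protein-coding genes only, a length offset, summed tumour replicates and each library left out. Leaving out 1 library at a time gave 49 to 53 higher, 4 to 6 lower and a median log2 fold change of 7.30 to 7.92. At equal level of the replication genes it gave 41 to 49 higher, and of the outside histone genes 51 to 55. The count of lower members was 0 with total counts, 1 with limma on log2(TPM + 1), 1 on log2(TPM + 0.1) and 3 with a fold change of 2 as the null. The median was 9.57 with total counts, 6.47 with DESeq2, 3.23 on log2(TPM + 1) and 6.32 on log2(TPM + 0.1). Among members with at least 50% of windows unique, an alternative chosen after seeing the data, 27 were higher and 3 lower, with a median of 6.21. Of 928 values of the 62 tested members, 872 kept direction and side of the threshold, 28 lost the call, 5 gained it and 23 turned sign. With total counts the sign turned for Hist1h1c (0.71), Hist2h2aa2 (1.94), Hist1h2bc (1.70), Hist2h3c2 (1.78), Hist1h2be (2.45), Hist2h2be (2.35), Hist3h2a (3.17), H3f3b (1.55), Lsm10 (1.94), Ints3 (2.53) and Asf1a (2.05). On log2(TPM + 1) and log2(TPM + 0.1) it turned for Hist2h2aa2 (0.28 and 0.28), Hist1h2be (0.38 and 0.47), Hist2h2be (0.21 and 0.49), Hist3h2a (1.08 and 1.39), Lsm10 (0.21 and 0.29) and Ints3 (0.74 and 0.89). Hist3h2a was also positive with upper-quartile scaling (0.12), DESeq2 (0.038), no filter (0.042), protein-coding genes only (0.026), the length offset (0.00859) and summed tumour replicates (0.016), and leaving out 1 library at a time gave it -0.18 to 0.20. The cause of these changes was not tested. No paired analysis was possible because the titles give normal and tumour samples no shared replicate numbers. With 2 normal libraries and 39 members at 0 counts in both, the depth sets only lower bounds for the largest differences, and 1 library more or less moves them.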
